A study of Rattus norvegicus and Ovis aries with 113 samples.

Results

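The 9 genes described here encode the lectin chaperones and disulfide isomerases of the endoplasmic reticulum (ER). CALR, CANX, PDIA3, PDIA4, PDIA6 and P4HB are expressed in most tissues, and CALR3, CLGN and PDILT are the relatives known from the testis. They were taken by upper-cased symbol, and each symbol was present in both count tables, so they are 9 of 31304 sheep genes and 9 of 38675 rat genes. The study sequenced RNA of brain and of a reproductive sample from the same animals, in 113 libraries. The sheep were 5 post-pubertal males, numbered 687, 688, 690, 694 and 699, and each gave sperm and 10 parts of the brain: basal ganglia, cerebellum, pons, hippocampus and the entorhinal, frontal, motor, prefrontal, posterior parietal and visual cortex. The rats were Sprague Dawley: 15 post-pubertal males gave whole brain and sperm, which was collected as seminal fluid, and 14 females gave whole brain and ovary. No treatment was given to any group. The labels used here name neither the breed of the sheep nor the age of the female rats.

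Newly made glycoproteins in the ER are held by calnexin (CANX), which is anchored in the membrane, and by calreticulin (CALR), which is soluble, for as long as their glycans carry a terminal glucose. PDIA3 is the isomerase that works with these lectins, and P4HB, PDIA4 and PDIA6 form and rearrange disulfide bonds more generally. In male germ cells calmegin (CLGN, related to CANX), calsperin (CALR3, related to CALR) and PDILT (a testis relative of the protein disulfide isomerases) are known for the folding of ADAM family proteins that sperm need to reach and bind the egg.

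The sequences before the start sites of the lectin chaperone genes and of their testis relatives are shown so that each gene can be set beside its relative. The RefSeq promoter table used here gave a window from 250 bases before to 50 bases after the start for 7 of the 9 rat genes, in the GRCr8 build. The ER stress response element (ERSE, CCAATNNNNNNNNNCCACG, searched on both strands) is the sequence through which ATF6 and XBP1 are known to act on ER chaperone genes. It was present in the windows of Calr and Canx and in 22 of 33469 rat windows, a share of 0.0657%. Windows of the ER chaperone genes Hspa5, Hsp90b1, Creld2 and Dnajc3 and of the regulator Xbp1 were among them. No match lay in the windows of Calr3, Clgn, Pdilt, Pdia4 or P4hb, which says only that these letters are not in those 300 bases. The CCAAT box alone, which the ERSE contains, was in all 7 windows and in 37.5% of all rat windows, and the cyclic AMP element TGACGTCA was in 0 of the 7 and in 1.83% of all. The windows of the calreticulin and calnexin genes and of their testis relatives are given 5′ to 3′ along the gene, with the ERSE in capitals, and the Calr match lies on the opposite strand to the gene. They are chr19:40213117-40213416 (+) for Calr, chr10:35157808-35158107 (-) for Canx, chr16:17429855-17430154 (+) for Calr3 and chr19:41633119-41633418 (-) for Clgn.
Calr: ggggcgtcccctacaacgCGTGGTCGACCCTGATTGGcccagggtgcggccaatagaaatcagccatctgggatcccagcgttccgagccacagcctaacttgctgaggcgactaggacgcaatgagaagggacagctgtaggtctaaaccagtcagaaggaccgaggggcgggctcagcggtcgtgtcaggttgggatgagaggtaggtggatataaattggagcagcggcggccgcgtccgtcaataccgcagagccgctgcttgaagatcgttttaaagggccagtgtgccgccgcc
Canx: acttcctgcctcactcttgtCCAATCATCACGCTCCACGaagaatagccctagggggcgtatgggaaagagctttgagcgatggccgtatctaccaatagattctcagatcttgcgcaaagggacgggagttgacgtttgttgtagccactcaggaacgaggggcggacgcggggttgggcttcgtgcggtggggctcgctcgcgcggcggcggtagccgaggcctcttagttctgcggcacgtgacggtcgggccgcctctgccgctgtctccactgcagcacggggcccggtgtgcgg
Calr3: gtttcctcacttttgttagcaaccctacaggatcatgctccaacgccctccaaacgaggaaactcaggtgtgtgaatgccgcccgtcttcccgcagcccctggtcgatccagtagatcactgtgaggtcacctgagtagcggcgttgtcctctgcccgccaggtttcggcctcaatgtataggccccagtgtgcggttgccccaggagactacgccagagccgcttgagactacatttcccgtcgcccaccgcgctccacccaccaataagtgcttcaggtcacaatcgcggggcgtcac
Clgn: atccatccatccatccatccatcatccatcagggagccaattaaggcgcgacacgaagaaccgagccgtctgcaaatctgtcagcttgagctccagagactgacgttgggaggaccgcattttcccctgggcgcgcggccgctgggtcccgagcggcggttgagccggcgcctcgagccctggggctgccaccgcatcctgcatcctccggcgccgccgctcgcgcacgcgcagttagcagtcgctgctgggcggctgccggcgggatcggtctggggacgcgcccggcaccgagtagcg

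In the same build Calr and Clgn share a chromosome. The positions are chromosome 19 from 40213367 to 40218262 (Calr), chromosome 16 from 17430105 to 17456777 (Calr3), chromosome 10 from 35124941 to 35157954 (Canx), chromosome 19 from 41601568 to 41633207 (Clgn) and chromosome 1 from 183268812 to 183562825 (Pdilt). For the isomerase genes they are chromosome 3 from 128841781 to 128865733 (Pdia3), chromosome 4 from 78134144 to 78153191 (Pdia4), chromosome 6 from 45791704 to 45808947 (Pdia6) and chromosome 10 from 106335300 to 106346911 (P4hb). All 9 are annotated as protein coding. The annotated span of Pdilt covers or touches 8 other genes, Acsm1 and Thumpd1 among them. Reads of a neighbour could have been counted there, so low PDILT counts in rats are uncertain. The promoter window of Pdilt, from 183299973 to 183300272 (-), lies inside this span and not at its 5′ end, so its start site is uncertain too. Pdia3 overlaps Catsper2, a gene of the sperm calcium channel, and Calr3 and Canx each touch 1 other gene. Low CALR3 counts in rats are therefore uncertain in the same way. Sheep positions were not analysed here.

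Levels are counts per 1000000 (CPM) scaled by trimmed mean of M values (TMM) factors, and they are compared between libraries but not between genes, because no transcript lengths were used. Totals ran from 46.7 to 72.4 M (1000000) counts in sheep brain, 13.7 to 65.1 M in sheep sperm, 38.2 to 119 M in rat brain, 50.5 to 60.3 M in ovary and 13.7 to 65.1 M in rat sperm. TMM factors of sheep sperm were 0.114 to 0.305 against 0.927 to 1.42 in sheep brain, so that each sheep sperm result depends on the scaling, and rat brain libraries 1 and 4 had factors of 0.069 and 0.12. Rat sperm libraries 16 and 17 stood apart in that only 461 genes in each had 1 to 10 counts, against a median of 6043 over the rat sperm libraries, so a 0 and a small count cannot be told apart there as they can in the others. The neuron markers averaged 8.39 to 8.96 on the log2(CPM + 1) scale in rat brain and 5.41 to 9.41 in sheep brain, and the theca and luteal markers averaged 6.55 to 9.71 in ovary. In sheep sperm the neutrophil markers averaged 7.21 to 11.1 (6 of 7 found, none at 0), the late spermatid and sperm markers 2.71 to 7.06 (12 of 12 found) and the stratified squamous epithelium markers 3.98 to 6.68. In these bulk samples, fewer cells of a type and less RNA per cell cannot be told apart. In rats, p-values measure the spread between these animals, with the dispersion of a gene shared by the groups of a fit. The main rat fits leave out the pairing of brain with sperm or ovary. Where sperm libraries spread more than brain libraries, as for CALR3, CLGN and PDILT, the SE and p-values may understate the spread of sperm. The main sheep fits treat the 50 brain libraries of 5 sheep as separate and share the dispersion of a gene across groups. Their SE and p-values may therefore understate the spread between sheep.

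The testis relatives were high in few rat sperm libraries. CALR3 was lowest in rat 17, where it is listed at 0 counts, had a median of 7.98 CPM and was highest in rat 14, at 450 CPM. Rats 7, 3 and 13 followed at 348, 90.5 and 36.1 CPM, and the remaining 11 sperm libraries had at most 10.8 CPM. Male rat brain libraries held 1.81 to 3.78 CPM, so that sperm lay above every brain library in 14 of 15 rats and was listed below them in rat 17. The edgeR log2 fold change was 4.65 ± 0.80 (SE, adjusted p = 5.10e-06).

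CLGN was high in the same animals and below the brain level in most others. Its level was 298, 172, 111 and 39.3 CPM in rats 14, 7, 3 and 13 and at most 7.77 CPM in the other 11, with a median of 0.495 CPM over the 15 and 0 counts in rats 11 (which allows up to 0.0690 CPM), 16 and 17. Male brain held 2.204 to 3.30 CPM, and 6 sperm libraries lay above all brain libraries (rats 9 and 4 among them, at 7.77 and 3.54 CPM), rat 15 lay within their range at 2.85 CPM, and 8 lay below them all, counting the 0 listed for rats 16 and 17. CLGN in sperm exceeded the brain of the same rat in 7 of 15 animals. The edgeR log2 fold change of group means was 4.13 ± 1.10 (SE, adjusted p = 0.00121), but with the animal as a replicate block it was -1.31 (edgeR adjusted p = 0.448), so the call was lost and the direction turned.

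PDILT was 112, 88.4, 25.8 and 12.2 CPM in rats 14, 7, 3 and 13, at most 3.15 CPM in the rest, and 0 counts in rats 5, 6, 11 and 17. Its median over the 15 sperm libraries was 0.716 CPM, and male brain held 0.0742 to 0.587 CPM. Sperm exceeded the brain of the same rat in 9 of 15 animals. The edgeR log2 fold change was 6.19 ± 1.22 (SE, adjusted p = 3.49e-05), and 1.497 with the replicate block (edgeR adjusted p = 0.383), where the call was lost.

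Rats 14, 7, 3 and 13 were also the 4 sperm libraries highest in the late spermatid and sperm markers, a list of 12 genes such as protamines that does not hold the members. That list averaged 10.2, 9.60, 8.34 and 6.90 on the log2(CPM + 1) scale in them and 2.61 to 5.78 in the others, and its summed level ran from 347 to 27719 CPM over the sperm libraries against 11.2 to 18.5 CPM in male brain. Spermatocyte markers, genes of meiosis, were highest in the same rats, with summed levels of 218, 144, 39.9 and 22.5 CPM against a median of 6.29 CPM. The part of these cells in the CALR3, CLGN and PDILT values was not tested. Without these 4 libraries, a choice made after the data were seen, CALR3 stayed called at 1.32 ± 0.32 (SE, edgeR adjusted p = 5.09e-04), while CLGN was at -0.90 (adjusted p = 0.235) and PDILT at 1.19 (adjusted p = 0.1005). CALR3 in sperm therefore lay above brain also in libraries where CLGN and PDILT did not pass the test, although the difference between the genes was not tested. At these low levels, reads of the gene that Calr3 touches cannot be told apart from its own.

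**Figure D1:**
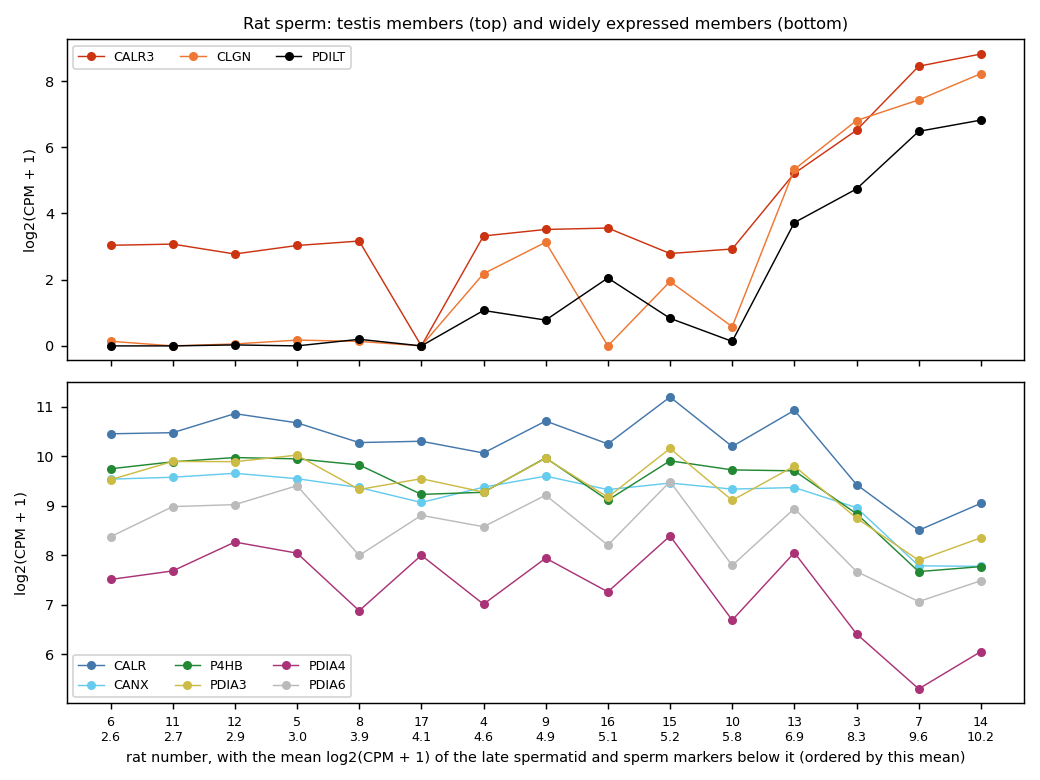
Level of each gene, as log2(CPM + 1), in the 15 rat sperm libraries, ordered from left to right by their mean late spermatid and sperm marker level (printed under each rat number); lines only join the libraries. CALR3, CLGN and PDILT (top) rise at the right, in rats 13, 3, 7 and 14, and the widely expressed genes (bottom) are lowest in rats 7 and 14.

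Of the widely expressed lectin chaperones, CALR rose in rat sperm against male brain and CANX changed by less than 2-fold. CALR was 362 CPM in rat 7, 529 CPM in rat 14 and 688 to 2350 CPM in the other 13, with a median of 1264 CPM, against 353 to 461 CPM in male brain. Only rat 7 fell inside the brain range. The edgeR log2 fold change was 1.76 ± 0.17 (SE, adjusted p = 1.14e-10). CANX ran from 218 to 806 CPM with a median of 660 CPM, against 406 to 565 CPM in brain, and its groups overlapped on both sides: 11 sperm libraries above all brain libraries, and rats 14 and 7 below them. At 0.50 ± 0.14 (SE, edgeR adjusted p = 0.00157) it did not reach the 2-fold threshold.

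Each of the 4 isomerase genes rose in rat sperm. P4HB, the abundant protein disulfide isomerase, was 203 to 1005 CPM with a median of 845 CPM, against 79.5 to 114 CPM in male brain, and the groups did not overlap (log2 fold change 3.01 ± 0.18 SE, edgeR adjusted p = 8.97e-16). PDIA3, the partner of the lectins, was 237 to 1142 CPM against 145 to 192 CPM, again without overlap (2.16 ± 0.16 SE, edgeR adjusted p = 1.12e-13). PDIA6 was 133 to 717 CPM against 96.4 to 126 CPM, without overlap (1.87 ± 0.18 SE, edgeR adjusted p = 9.28e-11). PDIA4 was 38.4 to 334 CPM against 28.0 to 39.7 CPM, where only rat 7 reached into the brain range (2.53 ± 0.22 SE, edgeR adjusted p = 4.77e-12). All 4 were lowest in rats 7 and 14, the libraries with the most CALR3, CLGN and PDILT.

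In all, 8 of the 9 genes rose in rat sperm and 0 fell, beside 27.7% of 20480 tested genes that were higher and 31.5% that were lower at the same thresholds (Benjamini-Hochberg adjusted p below 0.05 and at least 2-fold). In this main fit the median log2 fold change of the 9 genes was 2.53, against -0.03 over all genes tested. With the animal as a replicate block 6 genes were called, the same ones less CLGN and PDILT. In the block fit 4384 of 20480 genes were higher and 7541 lower, and the median over all genes was -0.36.

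A share of counts within a library does not depend on the scaling, but the share of a gene also falls when other members rise. CANX gave 32.9 to 38.9% of the counts of the 9 genes in male rat brain and 9.11 to 19.2% in rat sperm, with no overlap. P4HB gave 6.96 to 7.85% in male brain and 9.08 to 23.8% in sperm, again with no overlap. In rat 14, CLGN made up 57.7% of the counts of CLGN and CANX together, and in rat 7 CALR3 made up 49.0% of CALR3 and CALR, where the medians over rat sperm were 0.0766% and 0.619%. PDILT reached 34.0% of PDILT and P4HB in rat 14, with a median of 0.0716%.

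**Figure D2:**
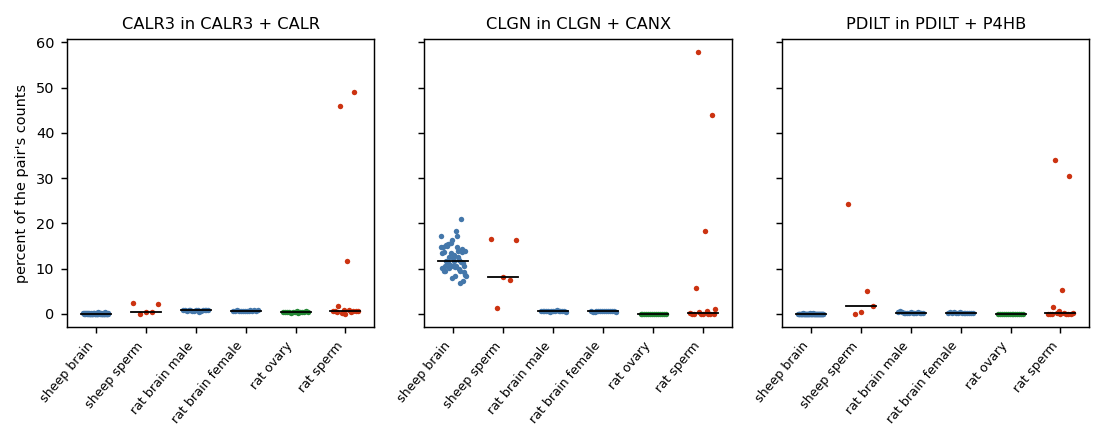
Percent of a gene pair's counts that came from the testis relative (CALR3 beside CALR, CLGN beside CANX, PDILT beside P4HB), with 1 point per library and the median of each group as a black line. Rat sperm spreads from 0 to 57.7% in the CLGN panel, and sheep brain lies between 6.87 and 21.0% there while both sexes of rat brain stay below 1%.

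Sheep sperm showed another pattern among the widely expressed genes. CALR was 1206, 3242, 2408, 1269.7 and 2593 CPM in sheep 687, 688, 690, 694 and 699, above all 50 brain libraries, which held 207 to 333 CPM. The edgeR log2 fold change was 3.13 ± 0.10 (SE, adjusted p = 1.84e-33). P4HB was 105, 4631, 1451, 218 and 624 CPM in the same order, against 54.95 to 103 CPM in brain. All 5 lay above brain, but sheep 688 exceeded sheep 687 many times over, and the difference fitted by edgeR, 4.17 on the log2 scale (SE 0.21, adjusted p = 1.41e-24), was 2.98 without sheep 688. This SE, like that of every gene in sheep sperm, rests on a dispersion shared with the brain groups and may understate the spread of sperm.

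Other isomerases were low in sheep sperm. PDIA6 had 0 counts in sheep 687 (which allows up to 0.403 CPM) and 26.0, 8.88, 3.10 and 5.05 CPM in 688, 690, 694 and 699, all below the 52.7 to 86.2 CPM of brain. It fell by 2.99 ± 0.35 (SE) on the log2 scale (edgeR adjusted p = 6.63e-11). PDIA3 was 31.3, 120, 84.5, 37.7 and 65.8 CPM against 98.8 to 153 CPM, with sheep 688 inside the brain range, and at -0.81 ± 0.15 (SE, edgeR adjusted p = 1.91e-06) it did not reach the 2-fold threshold. PDIA4 was 1.07, 76.5, 69.4, 6.43 and 18.1 CPM against 47.5 to 71.3 CPM: 3 sheep lay below all brain libraries and 1 above them (-0.75 ± 0.31 SE, edgeR adjusted p = 0.0217). CANX, at 217 to 413 CPM, overlapped the brain range of 187 to 403 CPM (0.21 ± 0.10 SE, edgeR adjusted p = 0.0519).

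**Figure D3:**
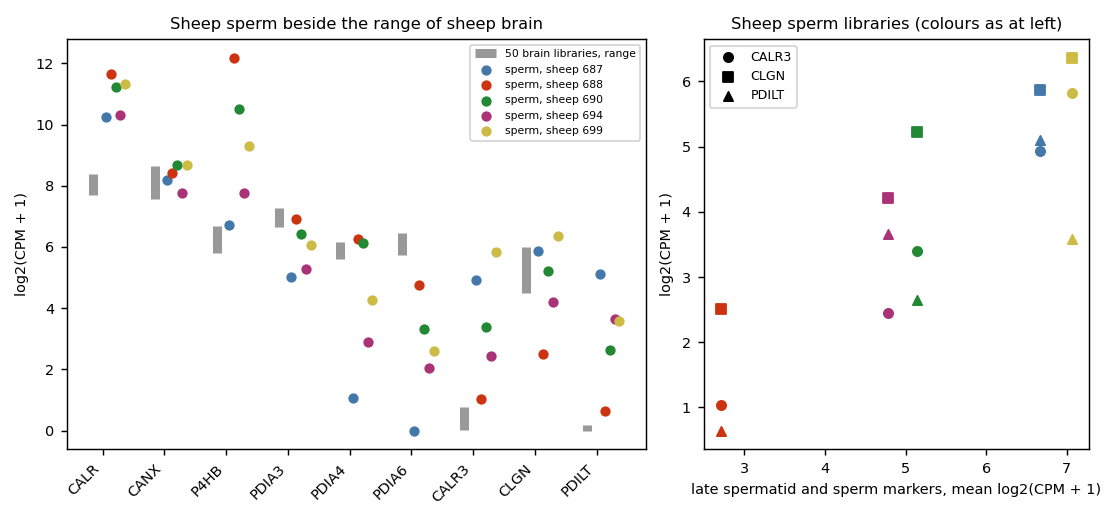
Left, level of each gene as log2(CPM + 1) in the 5 sheep sperm libraries (coloured points) beside the range of the 50 sheep brain libraries (grey bar). Right, CALR3, CLGN and PDILT in those sperm libraries against the mean of the late spermatid and sperm markers; sheep 688, at 2.71, has the lowest value of each gene.

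The testis relatives differed from each other in sheep sperm. CALR3 was 29.5, 1.05, 9.54, 4.43 and 55.6 CPM in sheep 687, 688, 690, 694 and 699, each above all brain libraries, whose highest level was 0.705 CPM (log2 fold change 7.06 ± 0.33 SE, edgeR adjusted p = 1.66e-25). PDILT was 33.4, 0.565, 5.26, 11.6 and 11.0 CPM, and 40 of 50 brain libraries had 0 counts with a highest level of 0.126 CPM, so all 5 sperm libraries lay above brain. PDILT did not pass the low-count filter in the main fit. Without the filter its edgeR log2 fold change was 10.8 ± 0.43 (SE, adjusted p = 5.61e-26), a value that depends on the prior count. CLGN was 57.6, 4.68, 36.5, 17.5 and 81.1 CPM against 21.6 to 62.4 CPM in brain: 1 sheep lay above the brain range and 2 below it, and no difference was called (-0.01 ± 0.23 SE, edgeR adjusted p = 0.981).

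CALR3 and CLGN took the same order over the 5 sheep, 699, 687, 690, 694 and 688 from high to low, as the late spermatid and sperm markers, which averaged 7.06, 6.67, 5.14, 4.78 and 2.71 in them. PDILT was highest in 687, and it was lowest in 688 as the others were. P4HB and CALR were highest in 688, where summed stratified squamous epithelium markers stood at 83919 CPM and neutrophil markers at 159190 CPM, the highest of the 5, beside lowest values of 4238.5 and 13844 CPM in the others. By their mean on the log2(CPM + 1) scale the squamous markers were also highest in 688 (6.68), but the neutrophil markers were highest in 694 (11.1, against 10.9 in 688), where CALR and P4HB were the second lowest of the 5. The part of these cells in the CALR and P4HB values was not tested.

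Of the 9 genes 8 were tested in sheep sperm against brain, and 3 rose (CALR, CALR3 and P4HB) and 1 fell (PDIA6), beside 33.1% of 21859 tested genes that were higher and 41.1% that were lower, so the share of members that rose was near that of all genes and the share that fell was below it. Their median log2 fold change was 0.10, against -0.42 over all genes tested. With plain library totals in place of TMM factors, a choice made after the data were seen, the median of all genes moved to -2.84. CALR3 (4.32) and P4HB (1.88) stayed called higher there, CALR (0.72) no longer reached the 2-fold threshold, and CANX (-2.26), CLGN (-2.68), PDIA3 (-3.19), PDIA4 (-3.08) and PDIA6 (-5.28) were called lower. CALR lay above the median of all genes and PDIA6 below it under both scalings. That is no check of the scaling, which moves all genes by about the same amount. As a share that needs no scaling, PDIA6 gave at most 0.308% of the 9 genes' counts in sheep sperm against 6.50 to 9.33% in sheep brain, CALR gave 38.4 to 71.1% against 22.8 to 36.7%, and CANX gave 4.03 to 16.5% against 20.7 to 39.3%. None of these 3 shares overlapped between sperm and brain, and how many of all genes did not overlap was not counted. The shares of the 9 genes depend on each other. The share of CANX, whose level overlapped brain, is lowered by the higher CALR and P4HB counts.

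Sheep and rat sperm thus differed over PDIA6, which was higher in every rat than in its own brain and lower in every sheep. Extraction and library kits differed between the species, and so did cell markers on the log2(CPM + 1) scale. Neutrophil markers averaged 7.21 to 11.1 in sheep sperm and 0.593 to 2.73 in rat sperm. Stratified squamous epithelium markers averaged 3.98 to 6.68 in sheep sperm and 0.500 to 1.11 in rat sperm. Species, preparation and cell content cannot be told apart, and the difference in PDIA6 was not tested.

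In the ovary, the widely expressed genes other than CANX rose by at least 2-fold, and no testis relative was called higher. CALR was 786 to 1440.1 CPM, with a median of 1049.6 CPM, against 410 to 557 CPM in female brain (log2 fold change 1.23 ± 0.08 SE, edgeR adjusted p = 1.77e-14). P4HB was 481 to 796 CPM against 90.2 to 113 CPM (2.74 ± 0.07 SE, edgeR adjusted p = 1.99e-25). PDIA4 was 131 to 256 CPM against 33.2 to 47.6 CPM (2.30 ± 0.09 SE, edgeR adjusted p = 4.14e-21). PDIA3 rose by 1.40 ± 0.06 (SE) and PDIA6 by 1.44 ± 0.08 (SE) on the log2 scale, with edgeR adjusted p of 6.24e-20 and 1.95e-16. In these 5 genes ovary and brain libraries did not overlap. How many of all genes did not overlap was not counted. By edgeR adjusted p alone, 9307 of 20801 tested genes were higher in ovary and 9124 lower. CANX, at 501 to 660 CPM against 456 to 567 CPM, overlapped and stayed below the 2-fold threshold (0.18 ± 0.05 SE, edgeR adjusted p = 8.75e-04).

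CLGN fell in the ovary, from 2.16 to 3.54 CPM in female brain to 0.0603 to 0.372 CPM, with no overlap and lower in 14 of 14 rats (-4.59 ± 0.21 SE, edgeR adjusted p = 4.74e-19). PDILT had 0 counts in 9 of 14 ovary libraries and at most 0.0622 CPM in the others, below all female brain libraries, which held 0.0914 to 0.449 CPM. It did not pass the low-count filter there. CALR3 was 3.18 to 5.92 CPM in ovary against 2.43 to 3.73 CPM in female brain, higher in 14 of 14 rats but under the 2-fold threshold (0.50 ± 0.09 SE, edgeR adjusted p = 6.90e-06). Of 8 genes tested, 5 rose and 1 fell, beside 27.7% of 20801 tested genes that were higher and 29.2% that were lower, and their median log2 fold change was 1.32 against 0.02 over all genes. The share of CANX in the 9 genes' counts was 32.7 to 37.7% in female brain and 14.7 to 20.3% in ovary, with no overlap. Such a share also falls when other members rise, as 5 did here.

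**Figure D4:**
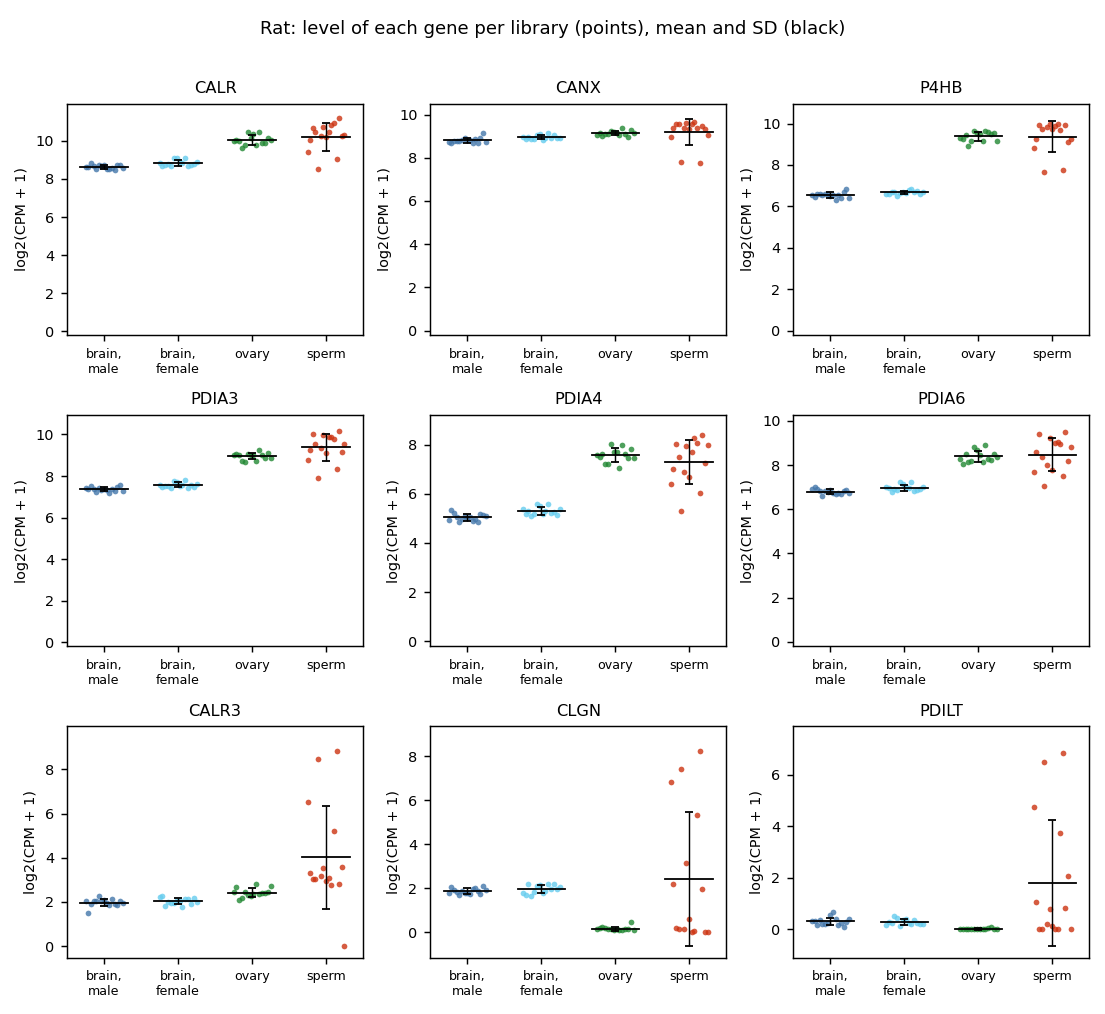
Level of each gene as log2(CPM + 1) in every rat library (points), by group, with the mean and SD of the log2 values in black. The widely expressed genes other than CANX sit higher in ovary and sperm than in brain, CLGN and PDILT sit near 0 in ovary, and CALR3, CLGN and PDILT are spread over several log2 units in sperm.

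Between rat sperm and ovary, CALR3 alone among the 7 genes tested was called at the 2-fold threshold. Beside it, 22.9% of 19611 tested genes were higher in sperm and 27.9% were lower. CALR3 was 4.11 ± 0.84 (SE) higher on the log2 scale (edgeR adjusted p = 7.10e-05), with 12 of 15 sperm libraries above all ovary libraries. Without the 4 sperm libraries rich in spermatid markers it was 0.91 (edgeR adjusted p = 0.0171), short of the 2-fold threshold. CLGN and PDILT did not pass the low-count filter in this fit, and without the filter both were called higher in sperm (8.61 and 10.5, edgeR adjusted p = 7.72e-06 and 2.16e-06). The other widely expressed genes did not pass the test: CALR at 0.24 ± 0.18, CANX at 0.09 ± 0.13, PDIA4 at -0.12 ± 0.22, PDIA6 at 0.17 ± 0.18 and P4HB at 0.06 ± 0.16 (SE), with edgeR adjusted p of 0.219, 0.535, 0.633, 0.414 and 0.751. PDIA3 was 0.48 ± 0.15 (SE) higher in sperm (edgeR adjusted p = 0.00539), under the 2-fold threshold. The ovary and sperm libraries come from different rats, of different sex.

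Between female and male rat brain, 1 of the 9 genes was called. PDIA4 was 33.2 to 47.6 CPM in females, with a median of 38.1 CPM, and 28.0 to 39.7 CPM in males, with a median of 32.3 CPM. The groups overlapped, with 5 of 14 female libraries above all male ones. Its edgeR log2 fold change was 0.27 ± 0.06 (SE, adjusted p = 0.0261), beside 0.0826% of 20570 tested genes (17) that were higher in females and 0.0972% (20) that were lower, with no fold threshold. CALR (0.22 ± 0.05 SE), PDIA3 (0.20 ± 0.04 SE), PDIA6 (0.19 ± 0.05 SE), CANX (0.15 ± 0.04 SE) and P4HB (0.12 ± 0.04 SE) had positive values that did not pass the test (edgeR adjusted p = 0.0673, 0.0523, 0.102, 0.206 and 0.284). CALR3, CLGN and PDILT did not pass either (0.07 ± 0.08, 0.13 ± 0.08 and -0.11 ± 0.26 SE, edgeR adjusted p = 0.827, 0.653 and 0.934).

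Among the listed genes of the pathway, HSPA5 (BiP, the main ER chaperone; 0.37 ± 0.07 SE), HSP90B1 (the ER form of HSP90; 0.23 ± 0.04 SE) and XBP1 (a transcription factor of the unfolded protein response; 0.23 ± 0.05 SE) were also called higher in female brain, with edgeR adjusted p of 0.00852, 0.0143 and 0.0212. They are 3 of the 17 genes called higher, and the rat promoter windows of all 3 hold the ERSE, while that of Pdia4 does not. Windows of Calr, Canx, Creld2, Dnajc3 and Ero1b also hold it, and these genes were not called in the main edgeR fit. A link between the ERSE and the difference between the sexes was not tested. With plain library totals, chosen after the data were seen, none of the 9 members was called between the sexes (edgeR, PDIA4 included), and with rat brain libraries 1 and 4 left out PDIA4 stayed called at 0.28. By DESeq2 4 members were called (CALR, PDIA3, PDIA4 and PDIA6) and by limma voom 5, with CANX added, all higher in females.

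Over the 10 sheep brain regions the widely expressed genes varied little. Of 80 gene and region pairs, each region set against the mean of the other 9, 6 were called higher and 4 lower, beside 10.5% and 7.93% of 211470 pairs over all genes tested (no fold threshold), so the members' counts were not above those of all genes. CANX in the pons was 352, 403, 337, 303 and 389 CPM in sheep 687, 688, 690, 694 and 699, against a mean of 283 CPM in the other regions, higher in 5 of 5 sheep (log2 fold change 0.37 ± 0.07 SE, edgeR adjusted p = 2.68e-05). CANX in the basal ganglia was 223, 277, 291, 226 and 187 CPM, lower in 5 of 5 sheep than the mean of their other regions (-0.28 ± 0.08 SE, edgeR adjusted p = 0.00359). Of the 10 calls these 2 were the ones that held with each sheep left out in turn. Oligodendrocyte markers averaged 11.2 on the log2(CPM + 1) scale in the pons, their highest region, and 9.11 in the basal ganglia, and their part in the CANX values was not tested.

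P4HB was called lower in the basal ganglia (-0.24 ± 0.07 SE, edgeR adjusted p = 0.00608) and higher in the pons (0.18 ± 0.07 SE, edgeR adjusted p = 0.0195), and PDIA6 was called lower in the hippocampus (-0.22 ± 0.07 SE, edgeR adjusted p = 0.0469). CALR, PDIA3 and PDIA4 were called in none of the 10 regions. These calls were lost without some sheep: P4HB in the basal ganglia without 694, P4HB in the pons without 687, 688 or 699, and PDIA6 without any sheep except 699. Over all alternative fits the PDIA6 call was kept in 5 and lost in 7. Fits of a called gene that lost the call numbered 7 in the basal ganglia and 6 in the pons. Some of these losses came under settings other than a left-out sheep.

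CLGN was a well-measured brain gene in sheep, at 21.6 to 62.4 CPM over the 50 libraries. It was lowest in the posterior parietal cortex, at 33.7, 32.8, 27.9, 21.6 and 27.2 CPM in sheep 687, 688, 690, 694 and 699 against a mean of 41.5 CPM in the other regions, lower in 5 of 5 sheep (-0.52 ± 0.14 SE, edgeR adjusted p = 0.00956). Without sheep 690 or 694 that call was lost. It was called higher in the cerebellum, at 46.5 to 54.2 CPM (0.36 ± 0.12 SE, edgeR adjusted p = 0.0113, lost without 690), and in the basal ganglia, at 38.3 to 54.0 CPM (0.33 ± 0.12 SE, edgeR adjusted p = 0.0411, lost without any sheep except 687). In rat brain CLGN ranged from 2.16 to 3.54 CPM, and its share of the CLGN and CANX counts was 6.87 to 21.0% in sheep brain against 0.473 to 0.750% in male rat brain. Those ranges do not overlap, but species and library preparation cannot be told apart.

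CALR3 was near the detection limit in sheep brain, at 0.0123 to 0.705 CPM. In the pons it was 0.269, 0.230, 0.705, 0.243 and 0.373 CPM in the 5 sheep in the same order, against a mean of 0.160 CPM in the other regions, higher in 5 of 5 (1.46 ± 0.40 SE, edgeR adjusted p = 0.00230, lost without sheep 690). In the entorhinal cortex it was 0.578, 0.0607, 0.111, 0.339 and 0.637 CPM, higher in 3 of 5 sheep (1.37 ± 0.40 SE, edgeR adjusted p = 0.0416). That call was lost without sheep 687, 694 or 699, and with the animal as a replicate block (edgeR adjusted p = 0.0601). Over all alternative fits it was kept in 6 and lost in 6. PDILT was not tested between regions, and 40 of the 50 brain libraries had 0 counts.

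**Figure D5:**
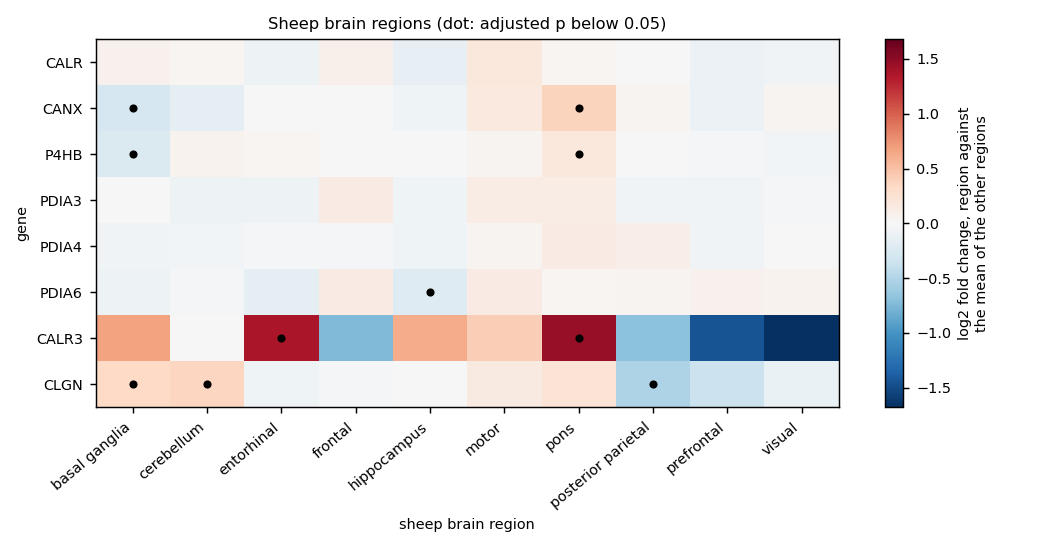
Log2 fold change of each gene (rows) in each sheep brain region (columns) against the mean of the other 9 regions, from edgeR over 50 libraries, with a dot where the adjusted p is below 0.05; PDILT was not tested. The colours of the 6 widely expressed genes are pale, with values from -0.28 to 0.37 at the called pairs, and CALR3 has the strongest colours at the lowest counts.

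The genes closest to each member by Pearson correlation of log2(CPM + 1), among genes with a mean of at least 10 CPM, were looked up over the 15 rat sperm libraries for the testis relatives. They were MSANTD5, MMEL1 and DYNC2I1 for CALR3 (r = 0.991, 0.988 and 0.987), POM121L2, RBM44 and TUBA3A for CLGN (0.998, 0.997 and 0.997), and FNDC11, CIMAP3 and MOSPD4 for PDILT (0.997, 0.996 and 0.995). Without rats 14 and 7, the libraries farthest from the median, r ran from 0.965 (MMEL1 with CALR3) to 0.997 (RBM44 with CLGN). Points share their libraries and the 4 high rats set most of the range, so these are descriptions of a common order.

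Over the 50 sheep brain libraries, which come from 5 sheep, CALR was closest to ZFPL1, HSP90B1 and MANF (r = 0.849, 0.813 and 0.811), the last pair being ER chaperone genes, and CANX to KATNAL1, SC5D and HSD17B4 (0.879, 0.859 and 0.837). PDIA3 was closest to CALR itself (0.679), NTAQ1 (0.650) and HSPA5 (0.644), and PDIA4 to MGAT1 (0.656), GRN (0.608) and HSPA5 (0.596). PDIA6 had ADIPOR1 (0.746), P4HB had PARP1 (0.664) and CLGN had MTDH (0.816) as its closest gene. For CALR and PDIA3 the farthest libraries were from sheep 699, and without them the r of CALR with HSP90B1 was 0.717 and that of PDIA3 with CALR was 0.57.

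Other genes of the pathway were counted by list. Of the 12 ER chaperone genes, 9 were called higher and 1 lower in rat sperm against brain, 9 higher and 0 lower in ovary against brain, and 6 higher and 2 lower in sheep sperm against brain. Of all genes tested, 27.7% were higher and 31.5% lower in rat sperm, 27.7% and 29.2% in ovary, and 33.1% and 41.1% in sheep sperm, the shares against which the counts of each list are to be read. The median log2 fold changes of the ER chaperones were 1.83, 1.15 and 1.00, against -0.03, 0.02 and -0.42 over all genes. SDF2L1, a BiP cofactor, had the largest rise in rat sperm (3.48 ± 0.15 SE, edgeR adjusted p = 2.61e-19), SIL1, a BiP exchange factor, in sheep sperm (3.55 ± 0.13 SE, edgeR adjusted p = 6.34e-30) and SERPINH1, the collagen chaperone, in ovary (4.04 ± 0.13 SE, edgeR adjusted p = 1.22e-22). SERPINH1 fell in sperm of both species, by 1.19 in rat and by 7.76 in sheep on the log2 scale (edgeR adjusted p = 2.88e-04 and 9.40e-20). Between rat sperm and ovary 1 rose and 1 fell, SDF2L1 and SERPINH1, where 22.9% of all genes were higher and 27.9% lower.

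Glycan trimming enzymes and the sensor UGGT, which decide how long a glycoprotein stays with calnexin and calreticulin, were called higher in 6 and lower in 1 of 9 in rat sperm, higher in 5 and lower in 0 in ovary, and higher in 2 and lower in 5 in sheep sperm, beside 27.7% higher and 31.5% lower, 27.7% and 29.2%, and 33.1% and 41.1% of all genes. EDEM2, a mannosidase-like factor of ER degradation, rose by 2.30 ± 0.10 (SE) in rat sperm (edgeR adjusted p = 2.89e-19) and fell by 3.79 ± 0.29 (SE) in sheep sperm (edgeR adjusted p = 5.57e-17). UGGT2 fell by 3.16 ± 0.62 (SE) in rat sperm (edgeR adjusted p = 3.55e-05), and EDEM1 rose by 2.50 ± 0.08 (SE) in ovary (edgeR adjusted p = 4.03e-23) and by 2.50 ± 0.19 (SE) in sheep sperm (edgeR adjusted p = 9.18e-17). In rat sperm against ovary 0 of 9 rose and 1 fell, UGGT2, where 22.9% of all genes were higher and 27.9% lower.

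Of 16 tested genes for other disulfide isomerases and oxidases, 6 rose and 3 fell in rat sperm, 3 rose and 3 fell in ovary, and 1 rose and 9 fell in sheep sperm. Beside the same shares of all genes (27.7% and 31.5%, 27.7% and 29.2%, and 33.1% and 41.1%), the counts in ovary lay below in both directions and the rises in sheep sperm lay below. ERP44, which retains proteins in the early secretory pathway, rose by 3.30 ± 0.16 (SE, edgeR adjusted p = 2.21e-18) in rat sperm, and PDIA2, the pancreas-type isomerase, fell by 6.13 ± 0.52 (SE, edgeR adjusted p = 3.20e-12). TXNDC5 rose by 2.83 ± 0.10 (SE, edgeR adjusted p = 5.06e-22) in ovary. ERO1A, the oxidase that recharges P4HB, rose by 5.70 ± 0.20 (SE, edgeR adjusted p = 5.24e-31) in sheep sperm, and TMX3 fell by 5.08 ± 0.36 (SE, edgeR adjusted p = 2.74e-18). In rat sperm against ovary 4 of 15 rose and 4 fell, near the 22.9% of all genes that were higher and the 27.9% that were lower.

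Of the genes of the unfolded protein response and ER degradation, 7 of 10 rose and 0 fell in rat sperm, 2 of 10 rose and 1 fell in ovary, and 3 of 9 rose and 5 fell in sheep sperm, where the rises matched the 33.1% of all genes. The shares of all genes that rose and fell were 27.7% and 31.5% in rat sperm and 27.7% and 29.2% in ovary, and 41.1% fell in sheep sperm. Between rat sperm and ovary 4 of 10 rose and 0 fell, beside 22.9% of all genes that were higher and 27.9% that were lower. ERN1 (the sensor IRE1) had the largest rise in each, at 2.37 ± 0.20, 1.91 ± 0.09 and 2.62 ± 0.23 (SE; edgeR adjusted p = 5.13e-12, 6.95e-19 and 5.46e-15). The list of factors for ADAM maturation and sperm migration held 12 genes, of which 10 were in the rat table. Of the 6 that passed the low-count filter in rat sperm against brain, 5 rose, led by TEX101 (12.3 ± 0.70 SE, edgeR adjusted p = 2.25e-16). TEX101 passed that filter only in fits that hold sperm, so its direction was given by the filter. In ovary 1 of 5 rose, TPST2 (1.61 ± 0.17 SE, edgeR adjusted p = 2.57e-10), and 3 fell, led by LY6K (-7.74 ± 0.42 SE, edgeR adjusted p = 3.84e-17). LY6K passed the filter only in fits that hold brain. In sheep sperm 2 of 3 tested rose, with RNASE10 at 4.89 ± 0.29 (SE, edgeR adjusted p = 3.01e-21), and the other 4 of the 7 found in the sheep table did not pass the low-count filter. Between rat sperm and ovary 3 of 5 rose and 0 fell, beside the same 22.9% and 27.9% of all genes.

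Over the sheep brain regions, 10.5% of the gene and region pairs of all genes were called higher and 7.93% lower. Of 120 ER chaperone pairs 8 were called higher and 4 lower, fewer in both directions than that share gives. Of 90 pairs of the glycan trimming genes 10 were higher and 4 lower, of 160 pairs of the other isomerases and oxidases 12 and 9, of 90 pairs of the unfolded protein response and ER degradation genes 8 and 4, and of 30 pairs of the ADAM maturation factors 4 and 4.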

How the data were processed

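RNA-seq libraries of brain, sperm and ovary from sheep and rats were analysed, from values the authors deposited as raw counts per gene, with 1 column per library. Sheep RNA was isolated with TRIzol and rat RNA with a Zymo kit, per the labels, and made into stranded mRNA libraries with different kits for the species; reads were trimmed with Trimmomatic 0.39, aligned with STAR 2.7.5a to GRCr8 or ARS-UI_Ramb_v3.0 and counted with Rsubread 2.20.0. The labels used here do not state the strand setting or the treatment of multi-mapping reads, so overlapping genes and close relatives are uncertain. In libraries with low TMM factors the plain CPM lay far below the scaled level, as for CALR in the brain of rat 1 (31.9 plain and 463 scaled). Which entries hold the other counts of such libraries is not shown here.

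All genes were tested with the quasi-likelihood test of edgeR 4.0.16 in R 4.3.3, with TMM factors, filterByExpr, a prior count of 0.125 and Benjamini-Hochberg adjustment over all genes tested. Tissue comparisons also required a change of at least 2-fold. The 10 regions were averaged for the contrast with sheep sperm, in a fit over all 55 sheep libraries, each region against the mean of the other 9 over 50 brain libraries, and each rat comparison used its own groups. The SE was computed back from the F statistic. The test was checked on simulated counts. Where a library had 0 counts, the limit is 3 counts, which covers counting error only. Library markers are the mean log2(CPM + 1) of a list.

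Sperm or ovary and brain carry the same animal numbers in the labels, which pairs them. Deviations from the group means of same-numbered libraries correlated at 0.02 to 0.18 (median 0.09) in sheep, -0.10 to 0.34 (median 0.07) for rat sperm and -0.31 to 0.20 (median 0.05) for ovary.

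All 9 members are named in every comparison. Of each pathway list the called gene with the largest change per direction was taken, and for each member the 3 genes of highest correlation. The members, lists and tests were chosen with earlier results of these data known. Alternatives were other factors (RLE, upper quartile), no filter, DESeq2 1.42.0, limma 3.58.1 (voom with quality weights), the replicate block, the other fold threshold and libraries left out. Plain totals, leaving out rat sperm libraries (each in turn, or the 4 richest in spermatid markers) and leaving out rat brain libraries 1 and 4 were added after the data were seen. Sheep white blood cells and mass spectrometry were not analysed here.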

Additional observations from a re-analysis of the deposited data

Results flagged for a closer look

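Within groups of 4 to 10 libraries, a library was singled out when its gap to the nearest other was large for the range of the group. This was so in 12 of 97 groups tested. Chance gives about 1 in 20 groups of continuous values, which cannot be set against this count: 6 of the 12 are PDILT groups where all libraries but 1 had 0 counts, which meets the criterion by construction, and 3 of the others share sheep 699. CALR in the basal ganglia was 333 CPM in sheep 699 against 230 to 247 CPM in the others, and in the pons 303.0 CPM in sheep 699 against 223 to 234 CPM. PDIA3 in the pons was 153 CPM in sheep 699 against 118 to 121 CPM. CALR3 in the basal ganglia was 0.6003 CPM in sheep 694 against 0.0468 to 0.193 CPM. CLGN in the basal ganglia was 38.3 CPM in sheep 687 against 49.6 to 54.0 CPM. P4HB in the visual cortex was 70.6 CPM in sheep 690 against 76.9 to 78.9 CPM.

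For PDILT, 6 regions had 1 library with reads and 0 counts in the other libraries. These were the cerebellum (0.0128 CPM), entorhinal cortex (0.0636 CPM) and frontal cortex (0.0142 CPM) of sheep 690, the motor cortex of sheep 687 (0.0143 CPM), and the posterior parietal (0.0150 CPM) and visual cortex (0.0317 CPM) of sheep 699, each from 1 to 4 counts.

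PDIA6 moved in opposite directions in sperm against brain, with an edgeR log2 fold change of -2.99 in sheep and 1.87 in rat and no overlap between sperm and brain in either species. The difference between the species was not tested.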

How the results depend on the processing

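In sheep sperm against brain 4 members were called, 7 with plain totals and 4 to 7 with 1 sheep left out (7 without sheep 688). The direction turned for CANX with plain totals (-2.26), and for CLGN with RLE factors (0.31), upper quartile factors (0.83), DESeq2 (0.31), summed regions (0.029) and in some fits with 1 sheep left out (-0.48 to 0.35). The log2 median of all genes moved by 0.25 with RLE factors, 0.73 with upper quartile factors, -2.42 with plain totals and 1.47 with DESeq2, which tested more genes. Calls over all genes split into 7239 higher and 8976 lower, but 8907 and 6980 with upper quartile factors, 9937 and 8132 with DESeq2, and 3249 and 15084 with plain totals.

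In rat sperm against brain the turned values were CLGN with voom (-2.47), the replicate block (-1.31) and without the 4 libraries rich in spermatid markers (-0.90), and PDILT with voom (-0.90). There the median of all genes moved by -0.24 with RLE factors and -0.32 with plain totals. Rat sperm against ovary had 1 called member, but 2 by adjusted p alone, 3 with no filter, 3 by DESeq2, 0 by voom and 0 without those 4 libraries. Over all 19611 genes tested, 4491 were higher and 5480 lower, 6394 and 7585 by adjusted p alone, and 3532 and 6840 by voom. Of 35009 genes, 12566 were higher and 6883 lower with no filter, and 8935 and 7114 by DESeq2. Without those 4 libraries 4343 were higher and 5829 lower. With plain totals (median shift -0.31) CALR (-0.080), CANX (-0.23), PDIA6 (-0.17) and P4HB (-0.27) turned there, and PDIA4 turned without the 4 libraries (0.34) and over fits with 1 sperm library left out (-0.20 to 0.22).

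Between the sexes 1 member was called, but 0 at the 2-fold threshold, 0 with plain totals, 4 by DESeq2 and 5 by voom. Over all genes 17 were higher and 20 lower, 51 and 106 by DESeq2, 99 and 191 by voom, and 4 and 14 with plain totals. With plain totals (median shift -0.22) CALR (-0.026), CALR3 (-0.20), CANX (-0.086), CLGN (-0.075), PDIA3 (-0.038), PDIA6 (-0.045) and P4HB (-0.10) turned. Between regions 10 pairs were called, 2 at the 2-fold threshold and 5 to 8 with 1 sheep left out. Over all genes 22287 of 211470 pairs were higher and 16764 lower, and 8446 and 7685 at the 2-fold threshold.

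The replicate block changed no call other than those named for CLGN and PDILT in rat sperm and CALR3 in the entorhinal cortex. In the ovary 6 members were called, and 8 by adjusted p alone (CALR3 and CANX added) and 7 with no filter or by DESeq2 (PDILT added, lower in ovary). Over all 20801 genes tested, 5763 were higher and 6069 lower, and 9307 and 9124 by adjusted p alone. Of 33789 genes, 8485 were higher and 10314 lower with no filter, and 7486 and 9287 by DESeq2. The other alternatives run in the ovary changed no call or direction. The cause of these shifts was not tested, apart from fewer animals in fits that leave some out. Depth limits CALR3 and PDILT in sheep brain, where a few counts set the value.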
